A study of Mus musculus with 4 samples.

Results

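Mesothelial cells of the embryonic mouse intestine made up 1317 of 23188 cells (5.68%) in 4 single-cell libraries, and were compared with 19603 mesenchymal cells of the same libraries. Members were selected on their own measured transcripts: a cell was taken as mesothelial when at least 2 of the 7 genes *Upk3b*, *Upk1b*, *Krt19*, *Krt7*, *Msln*, *Lrrn4* and *Muc16* were detected, that is, had at least 1 UMI (unique molecular identifier, 1 counted RNA molecule). A cell was taken as mesenchymal when it had no UMI of these 7 genes or of the nerve genes *Sox10* and *Prph*, and at least 1 UMI of the collagen genes *Col1a1*, *Col1a2* or *Col3a1*. Both kinds of cell had at least 1000 detected genes and less than 10% mitochondrial UMIs. The remaining 2268 cells fell in neither class, and 518 of these had exactly 1 of the 7 markers.

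The libraries came from untreated E12.5 embryos of the strain labelled EYFP (C57BL/6), 2 from the small intestine (SI) and 2 from the large intestine with the cecum (LI). The cells of all 4 libraries were sorted as live, CD45-, Ter119-, CD31-, EpCAM-, Itgb1+ and YFP+ cells, so epithelium, endothelium and blood cells were gated out before sequencing. Several embryos were pooled in each of 2 experiments, so a library stands for a pool, and the tissue labels name lamina propria although the titles give the embryonic stage. UMI counts were summed over the cells of a class in each library, expressed as CPM (UMIs scaled to 1000000 per sum) and compared between the 2 classes within libraries.

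Flat mesothelial cells form the outermost sheet of the gut, which lets organs slide past one another. The sheet arises from the lateral plate mesoderm, as the underlying mesenchyme does, and is unusual in that it carries epithelial keratins and junctions together with mesodermal transcription factors. In the embryo some mesothelial cells leave the layer through epithelial to mesenchymal transition, and the transcription factor *Wt1* is widely used to mark the layer.

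The mesothelial sums held between 2058832 and 2940729 UMIs per library and the mesenchymal sums between 23885617 and 53183142, so 1 UMI weighs far more in a mesothelial value. Median UMIs per mesothelial cell were 4549, 9349, 7966 and 8502.5 in the first and second LI library and the first and second SI library, an order in which all sets of 4 values are given here. The corresponding medians of mesenchymal cells were 4245, 8673.5, 8835 and 8349. LI replicate 1 was thus the shallowest library in both classes and held 557 of the mesothelial cells, against 254, 306 and 200 in the other libraries. Between 8 and 15 cell barcodes were shared by any pair of libraries, and none of them was a mesothelial cell in both.

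*Upk3b*, which encodes a uroplakin of the apical surface, was the most widely detected of the 7 markers, with a UMI in 1259 mesothelial cells (95.6%). *Krt7* and *Krt19*, keratins of simple epithelia, were found in 73.4% and 66.6%, and *Upk1b*, a tetraspanin uroplakin, in 71.2%. *Muc16*, a large membrane mucin, and *Lrrn4*, a leucine-rich repeat membrane protein, were found in 35.6% and 30.7%. *Msln*, which encodes mesothelin and is used to mark adult mesothelium, was detected in 3 cells (0.228%). These values come from the genes that chose the cells and are a description without a test.

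Of the 1317 mesothelial cells, 293 had exactly 2 markers, 298 had 3 and 726 had 4 or more. In LI replicate 1, 211 cells had exactly 2 markers, whereas the other libraries held 36, 33 and 13 such cells. Only 12 mesothelial cells were chosen on *Krt19* and *Krt7* alone. All 4 marker genes *Upk3b*, *Upk1b*, *Krt19* and *Krt7*, and no other, were found in 149 cells, the most frequent combination.

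**Figure D1:**
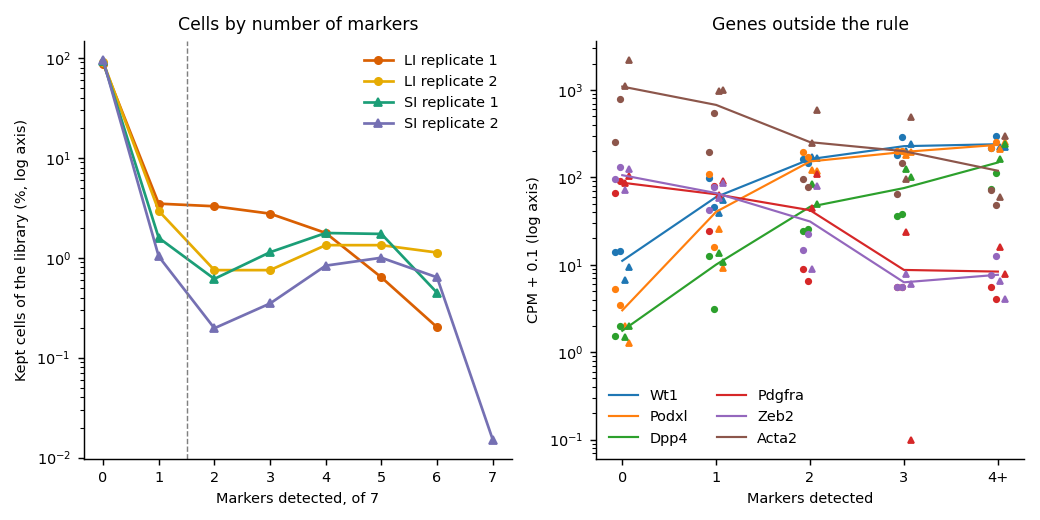
Cells by the number of the 7 markers detected, in each library, as a percentage of the kept cells of the library (left, logarithmic axis), and CPM of 6 genes in cells with 0, 1, 2, 3 or at least 4 markers (right, logarithmic axis to which 0.1 CPM was added, points are libraries, with circles for LI and triangles for SI, and lines join the means of the 4 libraries). The dashed line marks the threshold of 2 markers. Cells with 1 marker lay between the 0-marker cells and the mesothelial cells in the mean level of *Wt1*, *Podxl* and *Zeb2*.

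Cells just outside and just inside the threshold differed in the genes that were not used to choose them. *Wt1* measured 11 ± 3.74 CPM (SD, n = 4) in cells with no marker, 59.6 ± 26.3 CPM with exactly 1, 162 ± 10.2 CPM with 2, 228 ± 49.7 CPM with 3 and 240 ± 39.9 CPM with at least 4. *Podxl*, which encodes the anti-adhesive sialomucin podocalyxin, measured 2.91 ± 1.79 CPM with no marker, 40.3 ± 47.2 CPM with 1 and 152 ± 39.1 CPM with 2. LI replicate 1 stood apart among the cells with 1 marker: they had 110 CPM of *Podxl* and 24.2 CPM of the fibroblast receptor gene *Pdgfra*, while in the other libraries they had 9.18 to 25.8 CPM and 62.6 to 90.2 CPM. The 13 cells with exactly 2 markers in SI replicate 2 held 108 CPM of *Pdgfra*, whereas cells with 3 or more markers held at most 23.5 CPM in any library. These levels are given without a test.

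Of 18 mesothelial genes outside the rule that were measured well enough for the test, 16 were higher in mesothelial than in mesenchymal cells, 1 was lower and 1, *Nkain4*, was not called, and their median log2 fold change was 2.56, against -0.05 over all genes. The 6 of them that were set as markers for the name of the class were all among those higher. The 18 genes, these 6 among them, were chosen with earlier results of these data known. Their rise therefore describes the class and is not an independent check of its name. *Wt1* measured 186, 282, 213 and 220 CPM in mesothelial cells and 15.4, 16.0, 7.28 and 9.12 CPM in mesenchymal cells, which gave a log2 fold change and SE of 4.29 ± 0.16 and an adjusted p of 1.32e-07 in edgeR's quasi-likelihood test. *Podxl* measured 205, 240, 199 and 244 CPM against 5.53, 3.56, 1.75 and 1.02 CPM (6.41 ± 0.31, adjusted p = 4.16e-07). *Dpp4*, which encodes the surface dipeptidyl peptidase CD26, measured 44.3, 93.5, 150 and 221 CPM against 1.55, 2.09, 1.42 and 2.11 CPM (6.09 ± 0.25, adjusted p = 1.70e-07). For all 3 genes every mesothelial value was above every mesenchymal one, and *Dpp4* was higher in both SI libraries than in both LI libraries.

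*Bnc1*, a zinc finger factor of basal and mesothelial epithelia, measured 61.5 to 105 CPM in mesothelial and 6.49 to 8.83 CPM in mesenchymal cells (3.58 ± 0.10, adjusted p = 2.22e-08). *Pdpn*, encoding the mucin-type protein podoplanin, measured 29.2, 31.6, 36.6 and 45.7 CPM against 9.0, 5.91, 10.1 and 7.43 CPM (2.14 ± 0.16, adjusted p = 4.98e-06), and the neuronal membrane glycoprotein gene *Gpm6a* measured 9.85 to 13.4 CPM against 0.226 to 1.55 CPM (3.94 ± 0.46, adjusted p = 0.000121). All 3 separated the classes without overlap. *Tm4sf5*, a membrane protein of the tetraspan family, had the largest rise of the 18 (34.5 to 65.6 CPM against 0.0188 to 0.126 CPM, 9.08 ± 0.27). The gene that was lower was *Aldh1a1*, a retinal dehydrogenase. Its call was lost without LI replicate 2, without either SI library, in the DESeq2 Wald test (adjusted p = 0.430) and without high doublet scores (0.0627), and with 7579 mesenchymal cells left out that had at least 2 of the 5 smooth muscle genes *Actg2*, *Myh11*, *Cnn1*, *Des* and *Myocd* it was called in the other direction (0.52, adjusted p = 0.0442).

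Of 12913 genes tested, 5081 (39.3%) passed an adjusted p of 0.05, 2494 (19.3%) higher and 2587 (20.0%) lower in mesothelial cells, and 2288 passed in a fit without the library as a block. With the study's fold limit of 1.5 on the log2 scale, 658 genes (5.10%) were higher and 346 (2.68%) lower. Of these 1004 genes, 984 lay on the same side in all 4 libraries, and 866 did not overlap between the 2 classes at all, compared with 2897 genes (22.4%) among all those tested. Each count of a gene group below is to be read against these shares.

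The 12 called genes with the largest rise, among those with an average log2 CPM over 5, were *Cldn15*, *Podxl*, *Dpp4*, *Col18a1*, *Wt1*, *Smim1*, *Fbln2*, *Fgf9*, *Krt8*, *Bcam*, *Tmem108* and *Frem2*. *Cldn15*, a pore-forming claudin of tight junctions, measured 57.3, 124, 118 and 111 CPM in mesothelial cells and 0.377, 0.509, 0.350 and 0.357 CPM in mesenchymal cells (8.03 ± 0.14, adjusted p = 9.40e-10). *Col18a1*, the basement membrane collagen that gives rise to endostatin, measured 212, 235, 263 and 325 CPM against 17.0, 11, 8.61 and 5.73 CPM (4.69 ± 0.27). *Bcam*, a laminin receptor of the immunoglobulin family, measured 166 to 228 CPM against 9.09 to 15.1 CPM (4.01 ± 0.14), and *Frem2*, an extracellular matrix protein of epithelial basement membranes, 44.3 to 200 CPM against 3.22 to 12.3 CPM (3.97 ± 0.08). All 12 genes were higher in the mesothelial cells of every library than in the mesenchymal cells of any library.

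The 12 genes with the largest fall were led by smooth muscle and fibroblast genes. They were *Myh11*, *Gm13889*, *Actg2*, *Pdgfra*, *Hic1*, *Myocd*, *Acta2*, *Zeb2*, *Dnm3os*, *Tgfb1i1*, *Mylk* and *Snai2*. *Pdgfra*, the receptor by which the study sorts fibroblasts of the adult small intestine, measured 6.68, 4.42, 19.5 and 12.1 CPM in mesothelial cells and 72.9, 103, 96.1 and 115 CPM in mesenchymal cells (-3.21 ± 0.23, adjusted p = 3.74e-06). *Hic1*, a transcriptional repressor found in mesenchymal progenitors, measured 7.03 to 9.23 CPM against 60.6 to 91.7 CPM (-3.19 ± 0.10), and *Dnm3os*, the host transcript of miR-199a-2 and miR-214, 3.26 to 11.6 CPM against 34.3 to 75.2 CPM (-2.90 ± 0.20). These 3 genes did not overlap between the classes. In annotation, exons of *Pdgfra*, *Zeb2*, *Dnm3os* and *Gm13889* are overlapped by other genes on the same strand, so their counts may hold reads of those genes. With the 7579 cells named above left out, *Actg2* (-0.50, adjusted p = 0.246) and *Myh11* were no longer called lower. Both are among the 5 genes by which these cells, and no mesothelial cells, were left out, so this follows at least in part from that choice. High doublet scores, which mark barcodes that may hold more than 1 cell, were given to 128 mesothelial cells (9.72%) and 834 mesenchymal cells (4.25%). Without these cells the fall of 16 of the genes named in the comparison of the classes was more than 1.5 times as large as a ratio, with *Pdgfra* at -4.64, *Myh11* at -5.54, *Actg2* at -4.34 and *Acta2* at -4.20 on the log2 scale. *Myh11* was also at -4.70 without SI replicate 2, and at -5.77 with cells thinned to 3000 UMIs.

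**Figure D2:**
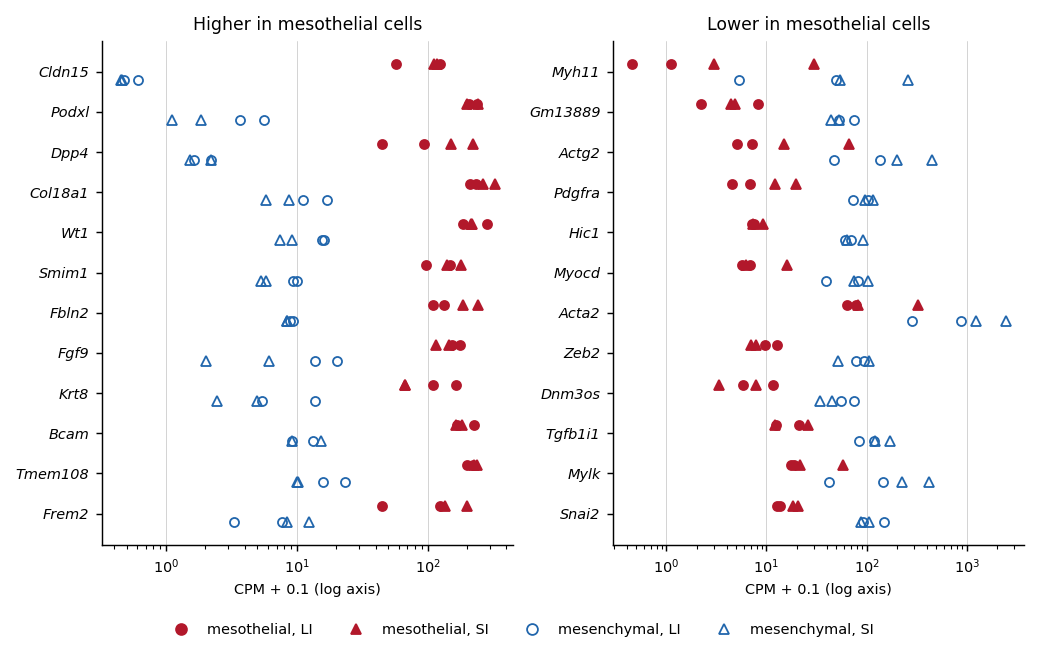
CPM in the 4 mesothelial sums (filled) and the 4 mesenchymal sums (open) of the 12 genes with the largest rise and the 12 with the largest fall in mesothelial cells, on a logarithmic axis to which 0.1 CPM was added. Circles are LI and triangles SI libraries, and *Myh11*, *Actg2*, *Acta2* and *Mylk* overlap between classes and are highest in SI replicate 2 in both classes.

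The 250 bases before the transcription start of 3 genes of the layer are shown to place these transcripts on the genome: the marker found in most members, and the genes of the list above with the largest and the third largest rise. They were read from RefSeq promoter entries on build GRCm38.p6, in which 14 of 19 genes (the 7 markers and the 12 genes above) had an entry. *Podxl*, with the second largest rise, had none. Capitals mark GGAATG or its complement CATTCC, the core letters bound by TEAD factors of the Hippo pathway, and AGATAA or TTATCT, bound by GATA factors, since *Tead4* and *Gata6* transcripts were among those higher in these cells.
Upk3b, chr5:136038246-136038495, plus strand: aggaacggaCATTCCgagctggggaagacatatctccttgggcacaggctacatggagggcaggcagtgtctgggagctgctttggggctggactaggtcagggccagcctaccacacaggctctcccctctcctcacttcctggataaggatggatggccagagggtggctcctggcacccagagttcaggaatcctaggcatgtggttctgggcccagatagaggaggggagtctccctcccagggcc
Cldn15, chr5:136967619-136967868, plus strand: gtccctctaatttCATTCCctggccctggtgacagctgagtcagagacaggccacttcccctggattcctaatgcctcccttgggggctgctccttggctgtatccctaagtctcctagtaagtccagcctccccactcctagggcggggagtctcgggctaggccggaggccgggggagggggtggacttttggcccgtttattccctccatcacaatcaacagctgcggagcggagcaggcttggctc
Dpp4, chr2:62412232-62412481, minus strand: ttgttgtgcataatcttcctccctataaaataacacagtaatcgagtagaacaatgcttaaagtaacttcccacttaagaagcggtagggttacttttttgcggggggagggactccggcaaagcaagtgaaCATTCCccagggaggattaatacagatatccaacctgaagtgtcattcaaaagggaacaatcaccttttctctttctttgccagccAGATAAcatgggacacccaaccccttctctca
Each of the 3 windows held 1 TEAD match, and that of *Dpp4* also held 1 GATA match. Among the 16 windows of the 14 genes, 7 held a TEAD match and 3 a GATA match, while 12.6% and 9.99% of all 32851 windows of this length did. The letters were picked after the gene results were seen, and these numbers were not tested against each other. A match of letters is a description and not a measured binding site.

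Of 10 keratin and desmosome genes tested outside the rule, 8 were higher and none was lower, with a median log2 fold change of 2.14. The keratin pair of simple epithelia was among them: *Krt8* measured 165, 109, 67.3 and 67.0 CPM against 13.6, 5.32, 4.83 and 2.37 CPM (4.10 ± 0.17), and *Krt18* 545, 280, 209 and 170 CPM against 87.3, 27.7, 22.1 and 9.55 CPM (3.30 ± 0.18). Both were highest in LI replicate 1 in either class. The desmosome genes *Dsp* (2.18 ± 0.27), encoding desmoplakin, *Pkp2* (2.94 ± 0.20), encoding plakophilin 2, and *Dsc2* (3.93 ± 0.47), a desmosomal cadherin, were also higher, whereas desmoglein *Dsg2* measured 8.84 to 14.6 CPM against 11.3 to 11.9 CPM and was not called.

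Tight and adherens junction genes were split. Of 19 tested, 9 were higher and 6 lower, with a median of -0.01. Besides *Cldn15*, the junction plaque gene *Cgn*, encoding cingulin (10.9 to 18.5 CPM against 1.26 to 1.76 CPM, 3.16 ± 0.23), the junctional adhesion gene *F11r* (2.41 ± 0.37) and *Cdh3*, encoding P-cadherin (86.2, 234, 217 and 169 CPM against 30.0, 73.0, 56.2 and 50.6 CPM, 1.73 ± 0.07), were higher. *Cdh2*, encoding N-cadherin, was lower by a small amount (-0.40 ± 0.10, adjusted p = 0.0107), a call that was lost without LI replicate 1 or without LI replicate 2, with cells thinned to 3000 UMIs (adjusted p = 0.0901) and with sums thinned to equal totals (0.0584). The larger falls were those of the junctional adhesion gene *Jam2*, with 1 against 223 UMIs (a ratio of CPM of 0.0673 with an exact 95% counting interval of 0.00170 to 0.379), and the claudin gene *Cldn11* (0.340 to 1.05 CPM against 1.17 to 3.57 CPM, -1.56 ± 0.53), both at low levels. *Ctnna1*, the alpha-catenin that ties cadherins to actin, lay at 134 to 203 CPM in mesothelial and 137 to 194 CPM in mesenchymal cells. The epithelial cadherin gene *Cdh1* and the claudin genes *Cldn1*, *Cldn3*, *Cldn4*, *Cldn6* and *Cldn7* did not reach the count filter, and the claudin gene *Cldn12* was not called.

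Polarity genes gave 10 higher and 2 lower of 18, with a median of 0.48. *Pard6b*, a subunit of the apical PAR complex, measured 35.2, 56.8, 55.4 and 71.4 CPM against 4.14, 5.30, 4.97 and 3.95 CPM (3.55 ± 0.15), and *Prkcz*, its atypical protein kinase C, 36.9 to 69.6 CPM against 4.27 to 9.29 CPM (3.16 ± 0.13). *Crb2*, an apical Crumbs protein (2.71 ± 0.19), and *Llgl2*, a basolateral determinant (2.63 ± 0.27), rose with them. The 2 lower genes were *Lin7a*, a scaffold of the Crumbs complex with 2 against 697 UMIs (a ratio of CPM of 0.0431 with an exact 95% counting interval of 0.00521 to 0.156), and *Pard6g*, a relative of *Pard6b* (42.8 ± 5.68 CPM against 54.2 ± 4.69 CPM, SD, n = 4, -0.34 ± 0.09). *Pard3*, the scaffold of the PAR complex, was not called (74.2 to 109 CPM against 83.7 to 120 CPM).

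Apical membrane and glycocalyx genes were higher in 12 and lower in 4 of 18, with a median of 1.08. *Ezr*, which encodes ezrin, the linker of microvillar actin, measured 300, 331, 466 and 422 CPM against 31.3, 21.2, 31.2 and 21.6 CPM (3.85 ± 0.13, adjusted p = 6.05e-08). Its relative *Msn*, encoding moesin, was lower (-0.47 ± 0.13, adjusted p = 0.0158) and *Rdx*, encoding radixin, was not called, and the call of *Msn* was lost without either SI library. *Slc9a3r1*, the scaffold that binds ezrin, measured 87.2, 125, 231 and 228 CPM against 48.6, 34.1, 30.3 and 13.9 CPM (2.44 ± 0.38), and *Has2*, a hyaluronan synthase, was lower (0.971 to 3.62 CPM against 13.1 to 17.1 CPM, -2.65 ± 0.26). None of 8 cilium genes tested was called in the edgeR test, and their median log2 fold change was 0.13. At an unadjusted p under 0.05 there was 1 such gene, and DESeq2 called 0, while 1 was called higher without the smooth muscle cells of the comparison.

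**Figure D3:**
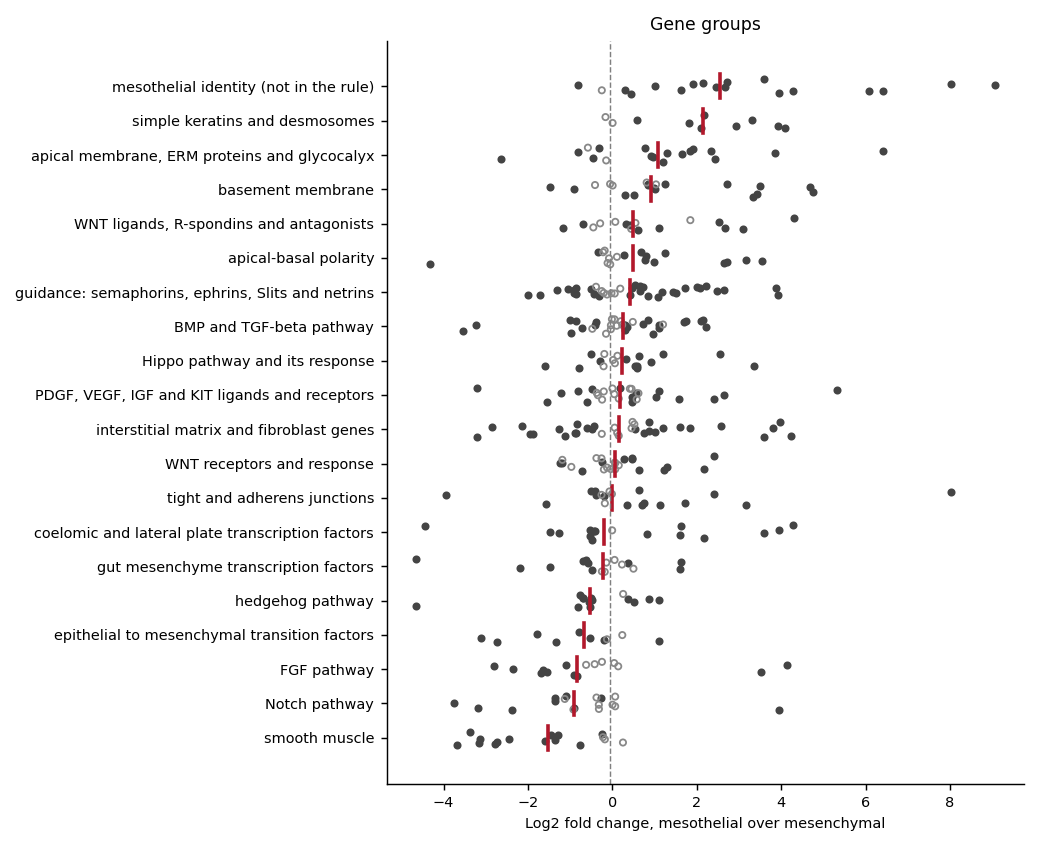
Log2 fold changes of the tested members of 20 gene groups, mesothelial over mesenchymal, with 1 point per gene, filled where the adjusted p is under 0.05, and a bar at the median. The dashed line is the median of all 12913 genes, -0.05, and the groups of mesothelial identity (median 2.56) and of smooth muscle (median -1.52) lie at the ends.

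Basement membrane genes rose in 13 of 20 cases and fell in 2, with a median of 0.92. *Npnt*, which encodes the integrin ligand nephronectin, measured 192, 245, 314 and 348 CPM against 20.5, 23.0, 34.9 and 19.2 CPM (3.49 ± 0.14), and *Nid2*, encoding nidogen 2, 13.4, 41.1, 43.4 and 66.5 CPM against 2.34, 3.26, 3.57 and 6.62 CPM (3.34 ± 0.17). The laminin chain of most epithelia, *Lama5*, was higher (38.7 to 61.2 CPM against 4.33 to 4.81 CPM, 3.43 ± 0.14), as was the low-level chain *Lama3* (4.75 ± 0.71). *Lama3* was at 4.03 without LI replicate 1, at 5.64 without SI replicate 2 and at 6.93 without the smooth muscle cells of the comparison. *Lama1*, the chain of the earliest basement membranes, was lower (-1.48 ± 0.29) and the collagen IV gene *Col4a1* was not called. Among 14 integrin genes, 2 were higher, 5 lower and 7 not called. *Itga3*, the laminin-binding alpha chain of epithelia, was higher (41.6 to 67.0 CPM against 3.52 to 5.13 CPM, 3.70 ± 0.20), as was *Itga6*. The alpha chains *Itga8* (-2.93 ± 0.18), *Itga9* (-2.94 ± 0.19) and *Itga4* (-1.83 ± 0.21) were lower, as was the beta chain *Itgb5*. *Itgb1*, the chain on which the cells were sorted, was lower by little (258 to 320 CPM against 324 to 424 CPM, -0.27 ± 0.08), a call that was lost without either SI library or without the smooth muscle cells of the comparison (adjusted p = 0.181).

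Interstitial matrix and fibroblast genes did not fall as a group: 13 of 33 were higher, 13 lower, and the median was 0.15. Those higher included *Dcn*, the small proteoglycan decorin, at 207, 275, 457 and 637 CPM against 30.0, 40.0, 24.1 and 29.0 CPM (3.58 ± 0.26, adjusted p = 4.94e-06). *Fbln2*, encoding fibulin 2, measured 110, 133, 185 and 244 CPM against 8.33 to 9.17 CPM (4.23 ± 0.17), and *Ogn*, encoding osteoglycin, and *Fbln5*, encoding fibulin 5, also rose (3.80 ± 0.53 and 3.97 ± 0.26). *Ogn* was at 4.45 without LI replicate 2 and at 3.17 without SI replicate 1. The fold changes of *Dcn* and *Ogn* were larger in SI than in LI. Those lower included *Col6a3*, a chain of collagen VI (5.07 to 8.26 CPM against 13.7 to 48.2 CPM, -2.14 ± 0.22), the transmembrane collagen *Col13a1* (-2.85 ± 0.26) and *Fn1*, encoding fibronectin (-0.83 ± 0.07). The 3 collagen genes of the rule were not tested, since mesenchymal cells were chosen by them. *Col1a1* transcripts were nonetheless found in mesothelial cells, at 210, 375, 298 and 537 CPM, beside 87.8, 189, 172 and 300 CPM in mesenchymal cells.

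Of 10 factors and effectors of epithelial to mesenchymal transition, 7 were lower in mesothelial cells and 1 was higher. *Zeb2*, a zinc finger repressor of epithelial genes, measured 9.49, 12.6, 6.88 and 7.77 CPM against 78.2, 95.1, 51.6 and 105 CPM (-3.12 ± 0.14, adjusted p = 2.20e-07). *Snai2*, which encodes Slug, measured 12.7, 13.6, 18.5 and 20.4 CPM against 92.0, 149, 87.4 and 106 CPM (-2.74 ± 0.15), and *Snai1* 10.5 to 13.8 CPM against 28.3 to 54.8 CPM (-1.78 ± 0.12). No library overlapped for these 3 genes. *Twist1* (0.24 ± 0.11) and the intermediate filament gene *Vim* (487 to 564 CPM against 527 to 615 CPM) were not called, and the epithelial factor *Grhl1* was higher at a low level (1.94 to 6.12 CPM against 1.40 to 2.42 CPM, 1.11 ± 0.33), a call that was lost without LI replicate 2, without SI replicate 1, with cells thinned to 3000 UMIs or without the smooth muscle cells of the comparison.

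Smooth muscle genes were lower in 13 of 16 and higher in none, with a median of -1.52. *Myocd*, the cofactor that drives smooth muscle genes, measured 5.63, 6.80, 6.15 and 16.0 CPM against 39.2, 81.8, 74.5 and 103 CPM (-3.17 ± 0.15). *Acta2*, the smooth muscle actin gene, measured 77.7, 63.9, 82.2 and 326 CPM against 282, 887, 1234 and 2460 CPM (-3.13 ± 0.29). SI replicate 2 was the highest library in both classes for these genes, and *Acta2* there in mesothelial cells exceeded the mesenchymal value of LI replicate 1. *Tagln*, *Des* and *Tpm1* were not called. With the mesenchymal cells that had at least 2 of 5 smooth muscle genes left out, 7 of these genes were lower and 2 higher. *Acta2* then differed by -1.25 on the log2 scale (adjusted p = 0.00186), *Tagln* by 0.72 (adjusted p = 0.00309) and *Myh11* by 1.67 (adjusted p = 0.0545), the last 2 towards mesothelial cells. *Myocd* and *Mylk* were then still called lower, by -1.11 and -1.22. Of the 16 genes, 5 were those by which these cells were left out, *Myh11* and *Myocd* among them, while *Acta2*, *Tagln* and *Mylk* were not.

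The transcription factors of the coelomic lining and lateral plate were divided, with 7 higher and 8 lower of 16. *Gata6*, a factor of lateral plate derivatives, measured 53.1, 66.7, 68.4 and 83.1 CPM against 4.94, 2.42, 3.62 and 7.37 CPM (3.96 ± 0.21), and *Bnc2*, a relative of *Bnc1*, rose less (1.63 ± 0.10). *Osr1*, a factor of intermediate and lateral plate mesoderm, was nearly absent from the mesothelial sums (4 against 1465 UMIs, a ratio of CPM of 0.0410 with an exact 95% counting interval of 0.0112 to 0.105), and its 4 UMIs all came from SI replicate 2. *Tcf21*, a factor of visceral mesenchyme, measured 32.0, 81.3, 70.6 and 104 CPM against 59.7, 239, 218 and 326 CPM (-1.49 ± 0.12). *Hand2* was not called. Among 16 gut mesenchyme factors, 3 were higher and 7 lower. *Foxf1*, a forkhead factor of visceral mesoderm, was present in both classes (219, 328, 315 and 261 CPM against 249, 469, 450 and 424 CPM, -0.48 ± 0.09), and was not called without the smooth muscle cells of the comparison (-0.13, adjusted p = 0.132). *Foxl1*, a forkhead factor of subepithelial mesenchyme, had 2 against 824 UMIs, a ratio of CPM of 0.0364 with an exact 95% counting interval of 0.00441 to 0.132.

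Hedgehog signalling passes from gut epithelium to the mesenchyme, where *Ptch1* and *Gli1* are induced. Of 14 genes of the pathway, 4 were higher in mesothelial cells and 9 lower. Without the smooth muscle cells of the comparison 3 were higher and 3 lower, with no library block likewise 3 and 3, and with cells thinned to 3000 UMIs or without LI replicate 2 the count of lower genes was 5. *Gli1* measured 24.3, 13.6, 12.3 and 10.2 CPM in mesothelial cells and 25.7, 21.3, 21.7 and 19.7 CPM in mesenchymal cells (-0.56 ± 0.16, adjusted p = 0.0208), and the value of LI replicate 1 in mesothelial cells lay within the mesenchymal range. This call was lost without LI replicate 2 (adjusted p = 0.0698), without SI replicate 1 (0.0991) or without SI replicate 2 (0.0648), with at least 3 markers (0.0669), without high doublet scores (0.0532), with cells thinned to 3000 UMIs (0.296) and without the smooth muscle cells of the comparison (0.393). *Ptch1*, the receptor, measured 169, 160, 157 and 118 CPM against 196, 261, 210 and 207 CPM (-0.53 ± 0.10, adjusted p = 0.00266). The transducer *Smo* (0.36 ± 0.06) and the coreceptors *Cdon* (1.10 ± 0.11) and *Gas1* (0.86 ± 0.05) were higher.

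Of 15 FGF genes tested, 2 were higher in mesothelial cells, 8 lower and 5 not called. The ligand *Fgf9*, a factor secreted by epithelia and mesothelia, measured 155, 175, 146 and 116 CPM in mesothelial and 20.2, 13.6, 6.07 and 1.92 CPM in mesenchymal cells (4.14 ± 0.34, adjusted p = 1.17e-05), and *Fgf18* 9.85 to 15.3 CPM against 0.738 to 1.81 CPM (3.53 ± 0.31). The receptor gene *Fgfr2* was lower (18.6, 29.2, 22.1 and 25.3 CPM against 49.9, 86.7, 82.8 and 89.4 CPM, -1.69 ± 0.11), as were the transcription factor genes *Etv4* (-2.81 ± 0.28) and *Etv1* (-2.35 ± 0.18) and the feedback inhibitor *Spry1* (-1.64 ± 0.14), all of which respond to FGF receptors. The ligand gene *Fgf10* was lower as well (0.971 to 18.0 CPM against 1.45 to 25.8 CPM, -0.84 ± 0.20). The family member *Fgf13*, the receptor genes *Fgfr3* and *Fgfrl1* and the feedback genes *Spry2* and *Dusp6* were not called.

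Of 27 ligand and receptor genes of the PDGF, VEGF, IGF and KIT families, 10 were higher and 6 lower. *Pdgfa* measured 184, 163, 177 and 152 CPM against 56.9, 68.9, 90.0 and 105 CPM (1.11 ± 0.16) and *Pdgfc* 82.0 to 106 CPM against 22.3 to 52.2 CPM (1.57 ± 0.17), both ligands of the receptor whose gene, *Pdgfra*, was among those with the largest fall, while the ligand gene *Pdgfd* was not called. *Igf1*, a growth factor, rose (46.8, 60.2, 122 and 152 CPM against 12.8 to 20.8 CPM, 2.42 ± 0.23), and *Flt4*, the receptor for VEGF-C and VEGF-D, was found at 2.11 to 5.83 CPM against 0.0233 to 0.169 CPM (5.32 ± 0.50). Those lower included *Kitl* (-1.54 ± 0.26) and its receptor gene *Kit* (-1.23 ± 0.11).

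WNT ligands and modulators were higher in 8 of 16 and lower in 2, with a median of 0.50. *Wnt2b* measured 7.29 to 12.7 CPM against 0.443 to 0.544 CPM (4.31 ± 0.27), *Wnt9a* 22.1 to 24.3 CPM against 2.09 to 3.85 CPM (3.09 ± 0.20) and *Rspo1*, an amplifier of WNT signals, 78.4, 103, 210 and 196 CPM against 8.54, 11.8, 41.4 and 40.4 CPM (2.67 ± 0.17). *Wnt5a*, the ligand of gut elongation, was lower (141, 143, 49.2 and 60.7 CPM against 247, 339, 119 and 162 CPM, -1.16 ± 0.11). On the receiving side, 8 of 23 genes were higher and 4 lower. The feedback target *Axin2* was higher (22.1 to 43.2 CPM against 11.3 to 14.3 CPM, 1.29 ± 0.19), as was the transcription factor *Lef1* (2.42 ± 0.34), while *Fzd1* and the WNT5A receptor gene *Ror2* were lower (-1.25 ± 0.21 and -1.20 ± 0.13). The feedback target *Nkd1* and the transcription factor *Tcf7l2* were also lower.

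BMP and TGF-beta genes were higher in 15 of 34 and lower in 8. *Tgfb2* measured 118 to 153 CPM against 28.5 to 31.6 CPM (2.15 ± 0.09), *Tgfb3* 38.7 to 53.9 CPM against 7.03 to 12.7 CPM (2.22 ± 0.11) and *Bmp2* 8.74 to 10.5 CPM against 1.49 to 4.33 CPM (2.10 ± 0.27), all secreted ligands. *Bmp3* and *Gdf10*, a related pair of ligands, were lower (-3.53 ± 0.46 and -3.23 ± 0.30). They were at -4.66 and -3.96 without LI replicate 2, and at -2.16 and -5.41 with cells thinned to 3000 UMIs. Among response and feedback genes, *Id1* and *Id4* were not called, *Id2*, *Id3* and *Smad7* were lower, and *Smad6*, *Msx1* and *Bambi* were higher. In the retinoic acid pathway *Aldh1a2*, the main enzyme of retinoic acid synthesis in the embryo, was higher (257, 385, 596 and 500 CPM against 23.6, 57.2, 345 and 272 CPM, 1.90 ± 0.41), and 6 of 17 genes were lower, with the binding protein *Crabp1* (-2.04 ± 0.19) and the degrading enzyme *Cyp26b1* (-1.88 ± 0.36) among them. The call of *Cyp26b1* was lost with cells thinned to 3000 UMIs (adjusted p = 0.0934).

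Notch genes were lower in 8 of 17 and higher in 1. The ligand genes *Dll1* and *Jag1* fell (-3.74 ± 0.34 and -1.36 ± 0.21) with the target *Hes1* (78.2 to 127 CPM against 179 to 273 CPM, -1.09 ± 0.17), and *Lfng*, a glycosyltransferase that modifies Notch receptors, rose at a low level (1.05 to 4.08 CPM against 0.0837 to 0.244 CPM, 3.94 ± 0.41). Hippo genes were higher in 9 of 18 and lower in 4. *Tead4* measured 9.41 to 16.0 CPM against 0.879 to 1.65 CPM (3.34 ± 0.23), the upstream regulator *Wwc1* 32.0 to 35.1 CPM against 5.41 to 6.03 CPM (2.55 ± 0.12) and the target *Ctgf* 248 to 427 CPM against 84.8 to 235 CPM (0.91 ± 0.15), while the coactivator *Yap1* was not called. Among 37 guidance genes 19 were higher and 11 lower, with the class 3 semaphorins *Sema3d* (54.2 to 134 CPM against 3.01 to 8.57 CPM, 3.88 ± 0.24) and *Sema3e* (3.93 ± 0.37) and the ephrin *Efna1* (2.64 ± 0.17) at the top.

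Cycle genes were lower in mesothelial cells by a small amount. All 24 genes of G2 and M phase were called lower, with log2 fold changes between -0.76 and -0.36, and 18 of 24 S phase genes were lower and none higher. *Top2a*, the topoisomerase of dividing cells, measured 438, 269, 335 and 255 CPM against 515, 418, 517 and 406 CPM (-0.54 ± 0.09). Without SI replicate 1, 8 of the S phase genes were called lower. With no library block, 10 of the G2 and M phase genes and 4 of the S phase genes were called lower.

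Of 18 imprinted genes 10 were higher and 2 lower. *H19* measured 1462, 1862, 1420 and 1728 CPM against 696, 845, 833 and 981 CPM (0.95 ± 0.08) and *Igf2*, its neighbour on chromosome 7, 472, 802, 1137 and 1145 CPM against 214, 363, 582 and 631 CPM (1.02 ± 0.08). In every library the mesothelial value of either gene was above the mesenchymal one, whereas the maternally expressed *Meg3* was not called (1682 to 2795 CPM against 1769 to 2338 CPM). *Peg10* was lower (13.3 to 17.0 CPM against 38.7 to 55.3 CPM, -1.66 ± 0.13).

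Markers of other cell types were measured as summed levels. The 11 endothelial markers summed to 38.8 to 53.8 CPM in mesothelial and 43.6 to 58.6 CPM in mesenchymal cells, and *Egfl7* (21.4 to 34.5 CPM against 10.5 to 17.2 CPM, 0.96 ± 0.15) and *Esam* (1.76 to 4.71 CPM against 0.305 to 0.658 CPM, 2.58 ± 0.42) were higher in mesothelial cells. *Plvap* (0 to 1.05 CPM against 1.49 to 5.48 CPM, -2.27 ± 0.41) and *Ramp2* (10.9 to 16.5 CPM against 25.7 to 38.1 CPM, -1.08 ± 0.12), of the same set, were lower. *Emcn* was at 0 in every mesothelial sum and *Pecam1*, which encodes the sorted antigen CD31, at 0.340 to 0.724 CPM. Of 14 epithelial markers 8, with *Vil1*, *Cdx1* and *Cdx2*, had no UMI in any mesothelial cell and their summed level was 25.0 to 42.5 CPM, nearly all of it *Epcam* (22.9 to 38.4 CPM against 6.32 to 16.4 CPM in mesenchymal cells, 1.37 ± 0.22). *Epcam* had a UMI in 174 mesothelial cells (13.2%) and in 6.39% of mesenchymal cells, although the sort excluded cells with its protein. With the 190 members left out that had a UMI of *Epcam* or of 4 other cell type genes, 4912 genes were called in place of 5081. No mesothelial or mesenchymal cell had a UMI of *Ptprc*, which encodes CD45. The 10 immune markers summed to at most 1.94 CPM in mesothelial and to 2.90 to 4.69 CPM in mesenchymal cells. Neural markers summed to 16.9 to 50.3 CPM in mesothelial and 80.6 to 128 CPM in mesenchymal cells. The 11 urogenital markers summed to at most 4.76 CPM in either class, with *Nr5a1* at 0 in every mesothelial sum.

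Genes that respond to tissue dissociation were higher in 12 of 18 and lower in 3. *Atf3* measured 902, 716, 289 and 554 CPM against 114, 106, 75.6 and 98.1 CPM (2.55 ± 0.16), *Fos* 2389, 3271, 1519 and 2013 CPM against 1264, 1862, 1073 and 1400 CPM (0.69 ± 0.09) and *Klf4* 247 to 319 CPM against 108 to 127 CPM (1.21 ± 0.10). The summed level of the 18 genes was 6117 to 12034 CPM in mesothelial and 5046 to 9029 CPM in mesenchymal cells. Their part in the other differences was not tested.

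Shares of cells with a UMI were compared after each cell had been thinned to 3000 UMIs, which left out 71 mesothelial and 1113 mesenchymal cells with fewer. *Wt1* was detected in 41.9%, 53.7%, 47.5% and 46.7% of mesothelial cells and in 2.03% to 4.48% of mesenchymal cells (before thinning, in 69.7% and 6.36% over all libraries). *Dpp4* was detected in 13.2%, 21.5%, 32.9% and 44.2% of mesothelial cells against at most 0.763% of mesenchymal cells, lower in both LI libraries than in both SI libraries. *Pdpn* was detected in 8.94% to 13.7% against 1.53% to 3.04%. *Pdgfra* showed the opposite order, with 1.22% to 4.06% against 18.7% to 27.7%. For *Gli1* the shares were 6.10%, 3.66%, 3.39% and 4.57% in mesothelial and 7.44%, 5.75%, 6.02% and 5.44% in mesenchymal cells, lower in mesothelial cells of each library, with ranges that overlapped. Droplets also hold free RNA, so the shares were set beside 1328 cells with no marker and at least 3 of 11 neural genes, thinned in the same way, a background chosen after the data were seen. Their median depth before thinning was 11217 to 19386 UMIs per library, against 4549 to 9349 UMIs in mesothelial cells. Over the libraries they had a UMI of *Gli1* in at most 1.44%, of *Ptch1* in 5.31% to 10.9% and of *Wt1* in at most 2.12%. The mesothelial shares of *Gli1* and *Ptch1* (22.8% to 40.0%) were above these values in every library. Because the neural cells were deeper before thinning, the part of free RNA in the mesothelial shares cannot be read from them and was not tested. For *Pdgfra* the neural share was 0.885% to 1.41%, and the mesothelial shares of both LI libraries lay within that range. For *Acta2* the neural share rose to 13.0% in SI replicate 2, where the mesothelial share was 14.2%. *Pdpn* was found in 2.21% to 10.4% of these cells. These shares have no test, and since members were chosen on detection they also depend on the rule.

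**Figure D4:**
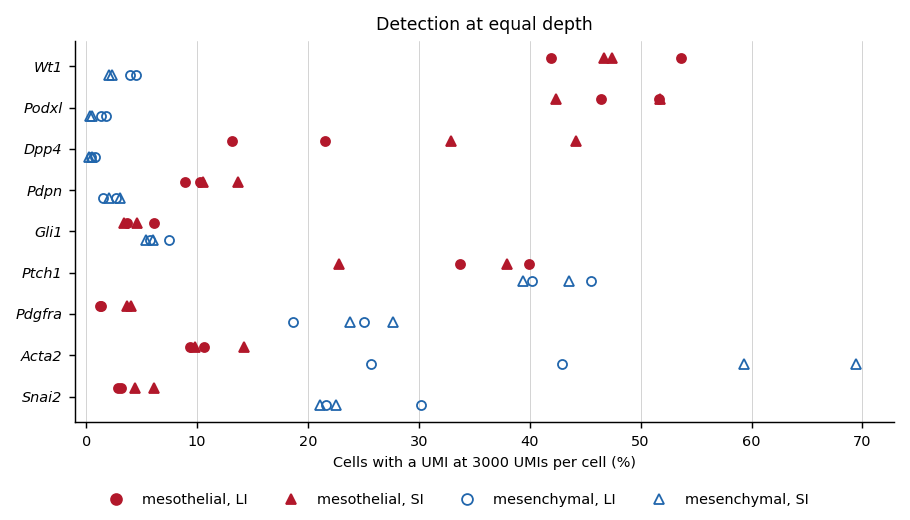
Share of cells with a UMI of 9 genes after thinning every cell to 3000 UMIs, for mesothelial and mesenchymal cells of each of the 4 libraries (circles LI, triangles SI), in percent. *Wt1*, *Podxl* and *Dpp4* lie high in mesothelial cells, *Pdgfra* and *Acta2* in mesenchymal cells, and *Gli1* and *Ptch1* overlap between the classes.

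Mesothelial cells made up 8.65% of kept cells in LI replicate 1 (95% Wilson interval 7.99 to 9.36), 5.31% in LI replicate 2 (4.71 to 5.98), 5.70% in SI replicate 1 (5.11 to 6.35) and 3.03% in SI replicate 2 (2.65 to 3.47). The intervals cover counting error only. SI held 4.37% ± 1.89 (SD, n = 2) and LI 6.98% ± 2.37 (SD, n = 2). An exact two-sided permutation test gave p = 0.667, where 2 libraries against 2 allow no p below 0.333. With at least 3 markers required, the shares were 5.37%, 4.55%, 5.08% and 2.84%.

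The largest differences between mesothelial cells of SI and LI included *Hox* genes, the transcription factors that encode position along the body axis. Of 10910 genes tested between the mesothelial sums, 113 (1.04%) passed, 55 of them towards SI and 58 towards LI. Without LI replicate 1 the count was 272 and without LI replicate 2 it was 1077. Of 30 *Hox* genes tested, a group counted after its values were seen, 8 rose in SI and 9 in LI. *Hoxd11*, *Hoxd10*, *Hoxa10* and *Hoxd9* were the 4 with the largest rise in LI among well-measured genes, and *Hoxb7*, *Hoxb2*, *Lum* and *Hoxc8* those with the largest rise in SI. *Hoxd11* measured 163 and 149 CPM in LI and had no UMI in either SI library, so it was at least 250-fold higher in LI, taking a floor of 3 UMIs over both SI sums. *Hoxd10* measured 56.3 and 68.0 CPM in LI and was likewise at 0 in SI (at least 100-fold). *Hoxa10* had 853 UMIs in LI and 3 in SI, a ratio of CPM of 0.00422 with an exact 95% counting interval of 0.000868 to 0.0124. Exons of *Hoxd11* and *Hoxd10* are overlapped on the same strand by *Gm28309*. *Hoxb7* measured 9.14 and 8.50 CPM in LI and 62.3 and 60.7 CPM in SI (2.86 ± 0.26, adjusted p = 0.000265). Mesenchymal cells of the same libraries had the same order of regions, with 250 and 211 CPM of *Hoxd11* in LI and 0.0467 and 4.87 CPM in SI, and 4.98 and 6.26 CPM of *Hoxb7* in LI and 38.8 and 34.4 CPM in SI.

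Several matrix and WNT genes of mesothelial cells also differed by region. *Lum*, encoding the proteoglycan lumican, measured 37.3 and 61.2 CPM in LI and 191 and 307 CPM in SI (2.40 ± 0.28, adjusted p = 0.00142), and *Dcn* 207 and 275 CPM against 457 and 637 CPM (1.25 ± 0.22, adjusted p = 0.0173). *Rspo3* (1.84 ± 0.26) and *Rspo1* (1.23 ± 0.20), both R-spondins, were higher in SI, and *Wnt5a* (-1.31 ± 0.21) and the neurotrophic factor gene *Gdnf* (-1.67 ± 0.26) higher in LI. Mesenchymal values of *Rspo3*, *Rspo1* and *Wnt5a* lay in the same order, at 46.3 and 69.4 CPM of *Rspo3* in LI and 150 and 157 CPM in SI. *Dpp4* was higher in SI (1.5 ± 0.30, adjusted p = 0.0393), a call that was lost in the DESeq2 Wald test (adjusted p = 0.208). The call of *Dcn* was lost without SI replicate 2 (0.197) and that of *Wnt5a* without SI replicate 1 (0.114). For *Wt1*, *Podxl*, *Pdpn* and *Gli1* no difference between regions was called, with log2 differences of -0.04 ± 0.21, 0.06 ± 0.19, 0.49 ± 0.24 and -0.67 ± 0.36. The study used kits that read either transcript end without naming the library each was used for, so kit and region cannot be told apart here.

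The contrast between mesothelial and mesenchymal cells itself differed between SI and LI for 408 of 12913 genes (3.16%), 167 with a contrast more towards mesothelial cells in SI and 241 in LI. Without LI replicate 1 the count was 261 and without SI replicate 2 it was 231. *Hpgd*, *Postn* and *Igfbp5* were among the 4 well-measured genes with the largest such differences in SI, and the call of *Hpgd* was lost in the DESeq2 Wald test (adjusted p = 0.185). *Postn*, the matricellular protein periostin, measured 41.5, 67.0, 115 and 145 CPM in mesothelial and 43.4, 44.8, 14.6 and 22.2 CPM in mesenchymal cells, so it was near equal in LI replicate 1 and higher in mesothelial cells of the other libraries, by the most in SI (interaction 2.45 ± 0.17, adjusted p = 7.07e-07). *Hoxd11*, *Aldh1a2*, *Cnn1* and *Lsp1* had the largest in LI. For *Hoxd11* this rests on 0 UMIs in the mesothelial sums of SI, and in LI it was lower in mesothelial cells (163 and 149 CPM) than in mesenchymal cells. For *Aldh1a2* the 4 mesenchymal values, 23.6 and 57.2 CPM in LI and 345 and 272 CPM in SI, differed more than the mesothelial ones (interaction -2.33 ± 0.16). The make-up of the mesenchymal class also differed. Cells with at least 2 of the 5 smooth muscle genes numbered 627, 1530, 2060 and 3362, of 5111, 4098, 4583 and 5811 mesenchymal cells. The interaction was not fitted without these cells, so their part in its calls was not tested. Among the mesothelial genes *Wt1* (0.74 ± 0.16), *Podxl* (1.58 ± 0.29) and *Dpp4* (1.36 ± 0.23) had a larger excess in SI, with lower mesenchymal values of *Wt1* and *Podxl* in SI and higher mesothelial values of *Dpp4* there. The interaction call of *Wt1* was lost without SI replicate 1 (0.0592), those of *Podxl* and *Cnn1* in the DESeq2 Wald test (both 0.216) and that of *Hoxd11* without SI replicate 2 (0.931).

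**Figure D5:**
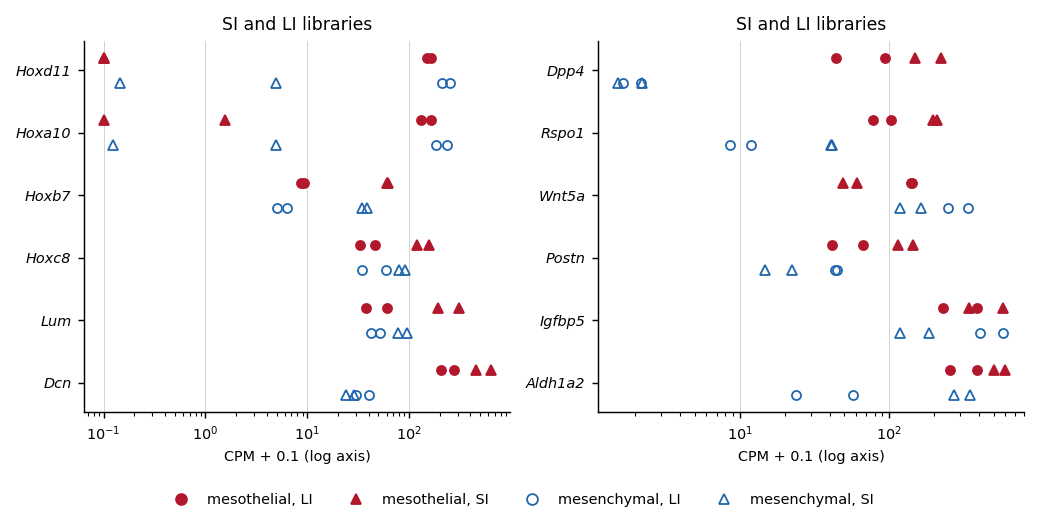
CPM in the mesothelial sums (filled) and mesenchymal sums (open) of 2 LI and 2 SI libraries for 12 genes that differed between SI and LI, either within mesothelial cells or in the contrast of the classes, on a logarithmic axis to which 0.1 CPM was added. *Hoxd11* and *Hoxa10* are at or near the floor in the mesothelial sums of SI, while *Dcn*, *Lum* and *Dpp4* are higher in SI in mesothelial cells.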

How the data were processed

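Single-cell RNA-seq libraries of sorted E12.5 intestinal cells were measured with UMIs, 2 from LI and 2 from SI. The deposited values were raw UMI counts of 28692 genes, which the authors made with Cell Ranger 3.1.0 on build mm10 according to the submitters' processing notes, and Seurat 3 is also named there. A 3′ or a 5′ kit was used, and which library had which is not given in the sources used here.

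Cells with at least 1000 genes and under 10% mitochondrial UMIs were kept, classes were assigned by the rule given above, and counts were summed per class and library. The rule, its members and all gene groups were chosen with earlier results of these data known. Sums were tested with edgeR 4.0.16 (TMM, quasi-likelihood F test, default filter on low counts, library as a block), and p-values were adjusted by Benjamini-Hochberg over all genes tested. A gene was called at an adjusted p under 0.05. The standard error is the absolute log2 fold change divided by the square root of F. SI and LI were compared within mesothelial sums and by the interaction of class and region in the same way. The 12 genes of the rule were not tested. Replicates were libraries, which the study reports as pools of embryos for the colon, so p-values measure the spread between these libraries. The scripts were tested on simulated counts.

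Named genes were the 12 called genes with the largest change in each direction, with an average log2 CPM over 5 and the same side in 4 libraries, then in each group the 5 called genes with the largest change and up to 3 uncalled genes with the highest CPM, and *Wt1*, *Gli1*, *Dpp4*, *Pdpn* and *Pdgfra* always. For regions and the interaction they were the 4 largest in each direction and called group members. Not all of these are printed. Some other genes of the groups were named after their values were seen, and some results are not reported here. Cells were thinned to 3000 UMIs for shares of cells. Doublets were left in, and cells with the highest Scrublet scores were left out as an alternative. Other alternatives were DESeq2 1.42.0, its size factors, no filter, no block, at least 3 markers, thinned sums, and leaving out each library or kinds of cell. Gene positions were taken from GENCODE M21, in which 28339 identifiers had a name, and promoter sequences from RefSeq. Intervals and floors cover counting error only.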

Additional observations from a re-analysis of the deposited data

Results flagged for a closer look

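Among the 130 genes named for the contrast of mesothelial and mesenchymal cells, 35 (26.9%) had a contrast that differed between SI and LI by edgeR's interaction test at an adjusted p under 0.05. The share over all genes tested was 3.16%. Most of the named genes were chosen from the same data for large contrasts or high CPM, so these shares are not like for like. Values are the log2 contrast in SI minus that in LI, with the SE.

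The 17 genes with a contrast more towards mesothelial cells in SI were *Ogn* (2.60 ± 0.43), *Gpm6a* (2.40 ± 0.48), *Slc9a3r1* (1.96 ± 0.29), *Fgf9* (1.69 ± 0.29), *Podxl* (1.58 ± 0.29), *Dcn* (1.47 ± 0.11), *Dpp4* (1.36 ± 0.23), *Dsp* (1.33 ± 0.26), *Igf1* (1.29 ± 0.17), *Col18a1* (1.23 ± 0.24), *Smim1* (1.08 ± 0.19), *Des* (1.06 ± 0.14), *Tmem108* (0.97 ± 0.17), *Axin2* (0.89 ± 0.22), *Fbln2* (0.81 ± 0.16), *Wt1* (0.74 ± 0.16) and *Meg3* (0.33 ± 0.08).

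The 18 genes with a contrast more towards mesothelial cells in LI were *Aldh1a2* (-2.33 ± 0.16), *Kitl* (-1.47 ± 0.34), *Sema3d* (-1.09 ± 0.28), *Itga3* (-0.95 ± 0.24), *Rspo1* (-0.94 ± 0.13), *Col4a1* (-0.83 ± 0.14), *Pdgfc* (-0.83 ± 0.18), *Pdgfa* (-0.80 ± 0.16), *Atf3* (-0.75 ± 0.14), *Ctgf* (-0.64 ± 0.16), *Hand2* (-0.51 ± 0.12), *Klf4* (-0.48 ± 0.11), *Id1* (-0.47 ± 0.09), *Fos* (-0.45 ± 0.07), *Bnc2* (-0.45 ± 0.11), *H19* (-0.41 ± 0.07), *Vim* (-0.40 ± 0.08) and *Igf2* (-0.33 ± 0.08). The 4 libraries form 2 groups of 2, so no library could be tested for standing apart from its group. Kit and region cannot be told apart in these comparisons. The number of mesenchymal cells with smooth muscle genes also differed between SI and LI, and the interaction was not fitted without them.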

How the results depend on the processing

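The 5081 calls between the classes became 3008 with cells thinned to 3000 UMIs and 2288 with no library block, and the 658 higher and 346 lower genes past the fold limit became 409 and 147 with sums thinned to equal totals. Leaving out 1 library gave 3740 to 5041 calls, of which 642 to 832 higher and 303 to 373 lower genes were past the limit. Between regions the 113 calls became 72 with thinned cells, 392 with no filter, and 103 to 1077 without 1 library, where LI replicate 1 (272) and LI replicate 2 (1077) moved the count most and leave LI with a lone library assumed to vary like SI. With a replicate block the count was 554. Replicate numbers are not tied to a shared day in the labels, and same-numbered libraries deviated together with a correlation of 0.25 across genes, with 2 pairs only, so the libraries were not treated as paired. The 408 interactions became 241 with thinned cells, 685 with no filter and 231 to 528 without 1 library (LI replicate 1 261, SI replicate 2 231). The difference in the share of mesothelial cells, -2.61 percentage points SI minus LI, was -4.29 to -0.94 without 1 library. At 2000 UMIs per cell, *Wt1* was detected in 35.4% and *Pdpn* in 6.87% of mesothelial cells, *Pdgfra* in 17.0% of mesenchymal cells, and *Gli1* in 2.32% and 4.41% of the classes.

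Among named genes, 1860 of the fits of the class contrast under an alternative kept direction and call, 47 lost the call, 6 gained it and 26 changed sign. Between regions 188 such fits kept direction and call, 6 lost the call (*Hoxb2* and *Dpp4* in the DESeq2 Wald test, *Dpp4* also with DESeq2 size factors and with thinned cells, *Dcn* without SI replicate 2 and *Wnt5a* without SI replicate 1), 1 gained it (*Gli1*, -1.07, without LI replicate 2) and 3 changed sign. Of the interaction 92 kept them and 8 lost the call: *Hpgd*, *Cnn1*, *Podxl* and *Hoxd11* in the DESeq2 Wald test, *Hoxd11* also with thinned cells, without SI replicate 2 and without high doublet scores, and *Wt1* without SI replicate 1. With no library block the class call was lost for *Aldh1a1*, *Myh11*, *Cdh2*, *Msn*, *Lama1*, *Itga4*, *Itgb1*, *Grhl1*, *Foxf1*, *Gli1*, *Wnt5a*, *Fzd1*, *Gdf10*, *Aldh1a2*, *Cyp26b1*, *Jag1*, *Ctgf*, *Top2a* and *Igf2*. The log2 values whose sign changed were 0.52 for *Aldh1a1* (adjusted p = 0.0442, a call in the other direction), 1.67 for *Myh11*, 0.15 for *Col4a1*, 0.72 for *Tagln*, 0.13 for *Tpm1* and -0.0471 for *Meg3* without the smooth muscle cells of the comparison, 0.00197 for *Ctnna1* and 0.00586 for *Hand2* in the DESeq2 Wald test, 0.0131 for *Ctnna1* and 0.0255 for *Hand2* with thinned cells. Others were 0.00157 for *Ctnna1* with no library block, 0.00554 for *Hand2* with DESeq2 size factors, 0.0284 for *Id1* with thinned sums, -0.0511 for *Meg3* with no filter, -11.01 for *Epcam* without members with other cell type genes. Leaving out 1 library gave -0.0371 to 0.0365 for *Ctnna1*, -0.22 to 0.14 for *Col4a1*, -0.56 to 0.20 for *Tagln*, -0.0890 to 0.0903 for *Hand2*, -0.10 to 0.10 for *Id1*, -0.0434 to 0.13 for *Meg3*, -0.30 to 0.24 for *Wt1* between regions and -0.0711 to 0.19 for *Podxl* between regions. The change for *Epcam* follows from leaving out cells by this gene, and the cause of the others was not tested.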
